A study of Mus musculus with 6 samples.

Results

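Glutathione S-transferases are the enzymes that join the tripeptide glutathione to reactive molecules. The 10 genes described here are Gsta1 to Gsta4 of the alpha class, Gstm1 to Gstm4 of the mu class, Gstp1 of the pi class and Gstt1 of the theta class. They were taken by symbol, and each matched 1 of the 55802 rows of the deposited count table. Liver RNA came from mice labelled WT, of the C57BL/6 strain. The CCl4 group, with 3 libraries, received carbon tetrachloride, a solvent that the liver turns into a reactive radical and that injures the tissue. The control group, also with 3 libraries, received oil. The labels give no dose, duration, sex or age. They do not say that the libraries came from separate animals, so the spread behind each p-value is that between libraries and may be technical. The series title names CCl4-induced liver fibrosis, and the comparison of CCl4 with control asked how transcripts differed between these livers.

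Cytosolic glutathione transferases work as dimers of subunits from the same class, and the classes differ in the molecules they accept. Their products leave the cell through ABC transporters and are trimmed and acetylated to mercapturates. In rodent liver many of these genes are known to be induced by foreign chemicals, through the transcription factor NRF2 and through the receptors AHR, CAR and PXR. The liver holds the enzymes mainly in hepatocytes, and their abundance differs between the sexes and along the lobule.

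Library totals ran from 18929972 to 20042731 counts, and the 10 members took 0.464 to 0.509% of the counts in CCl4 libraries and 0.425 to 0.480% in control libraries. Levels below are CPM, counts per 1000000 after scaling of the libraries, as mean ± SD over 3 libraries. Fold changes are log2 values of CCl4 over control from edgeR's quasi-likelihood test, and a gene was called when its Benjamini-Hochberg adjusted p over all 15579 tested genes was under 0.05. The liver label was checked against 13 hepatocyte markers, which summed to 126600 to 137700 CPM in CCl4 and 123700 to 128600 CPM in control libraries. Alb, serum albumin, averaged 73971 ± 1664 CPM in CCl4 and 71800.2 ± 3609 CPM in control livers (log2 fold change 0.04, adjusted p = 0.655). CCl4 replicate 3 stood apart from the other CCl4 libraries: its count differences from them had chi-square values per gene of 25.8 and 20.1, against 5.71 between CCl4 replicates 1 and 2 and 8.52 to 12.2 among controls. In bulk RNA, fewer cells of a type and less RNA per cell cannot be told apart.

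Some members are close copies of each other, which bears on how far each row can be read alone. In the principal GENCODE M21 transcripts, the coding sequences of Gsta1 and Gsta2 were 97.6% identical, and those of Gstp1 and its neighbour Gstp2 were 98.1% identical. Within the mu class, Gstm1 and Gstm3 were 89.4% identical, Gstm1 and Gstm2 85.9%, and Gstm1 and Gstm4 80.1%. Of all stretches of 50 bases along each transcript, 89.7% of those of Gsta1, 64.2% of those of Gsta2 and 62.3% of those of Gstp1 also occurred in a transcript of another gene. The share was 28.8% for Gstm3, 23.1% for Gstm1 and 9.4% for Gstm2, and 0% for Gsta3, Gsta4, Gstm4 and Gstt1. A read from a shared stretch has no single source, and the sources used here do not state how the counting treated such reads.

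Promoters are shown for the members at the extremes of the response, together with the near-copy of one of them and the most abundant alpha member. They come from RefSeq (build GRCm38.p6), which had a promoter for 9 of the 10 members (Gsta4 had none), and run from 250 bases before to 50 bases after the annotated start, 5′ to 3′ on the gene's strand. Capitals mark matches, on either strand, to the antioxidant response element core TGACNNNGC, the xenobiotic response element core GCGTG, the nuclear receptor motif AGGTCA or the AP-1 site TGANTCA. The Gsta1 promoter lies at chr9:78230419-78230718 on the plus strand, and that of Gsta2 at chr9:78347096-78347395 on the minus strand. The Gsta3 promoter lies at chr1:21240335-21240634 on the plus strand, and that of Gstp1 at chr19:4037863-4038162 on the minus strand.
Gsta1: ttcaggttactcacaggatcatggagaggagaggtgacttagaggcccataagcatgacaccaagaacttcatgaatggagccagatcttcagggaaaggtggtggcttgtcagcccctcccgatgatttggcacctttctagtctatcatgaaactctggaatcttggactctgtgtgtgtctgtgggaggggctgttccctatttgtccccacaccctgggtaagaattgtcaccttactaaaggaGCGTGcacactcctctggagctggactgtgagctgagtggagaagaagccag
Gsta2: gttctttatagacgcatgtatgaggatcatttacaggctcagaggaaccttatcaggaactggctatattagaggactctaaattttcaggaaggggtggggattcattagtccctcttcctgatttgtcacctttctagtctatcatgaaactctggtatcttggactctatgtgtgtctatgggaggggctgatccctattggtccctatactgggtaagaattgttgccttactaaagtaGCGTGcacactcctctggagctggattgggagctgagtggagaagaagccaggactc
Gsta3: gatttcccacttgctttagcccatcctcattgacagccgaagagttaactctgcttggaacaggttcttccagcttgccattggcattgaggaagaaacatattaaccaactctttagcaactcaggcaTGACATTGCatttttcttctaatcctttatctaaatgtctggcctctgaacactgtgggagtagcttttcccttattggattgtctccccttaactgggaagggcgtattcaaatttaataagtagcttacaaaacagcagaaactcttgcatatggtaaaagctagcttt
Gstp1: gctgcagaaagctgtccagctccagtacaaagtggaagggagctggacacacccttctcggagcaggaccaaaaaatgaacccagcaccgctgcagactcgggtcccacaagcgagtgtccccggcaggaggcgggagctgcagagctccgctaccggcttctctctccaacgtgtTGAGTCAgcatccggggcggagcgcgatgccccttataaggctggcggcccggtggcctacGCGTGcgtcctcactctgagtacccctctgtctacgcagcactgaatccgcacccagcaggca
The Gsta1 and Gsta2 windows matched in 232 of 311 aligned columns (74.6%). Each held GCGTG, at position -2 in Gsta1 and -7 in Gsta2, a motif that 32.4% of all 32851 promoters of this length hold. Gsta3 held TGACNNNGC at position -121, as did 12.4% of all promoters somewhere in the window. Gstp1 held GCGTG at position -13 and TGANTCA at position -74, and 7.8% of all promoters hold the second of these motifs. AGGTCA, found in 16.3% of all promoters, was absent from these windows. A match describes the letters only. The response elements known in rodent transferase genes can lie farther upstream than these windows reach.

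Of the 10 members, 3 were higher in CCl4 livers (Gsta1, Gstm3 and Gstm1), 2 were lower (Gstp1 and Gstt1) and 5 were not called. Among all genes tested, 41.3% were called, 21.2% higher and 20.1% lower, so being called was common in this comparison. The members spanned a wide range of change, with log2 fold changes of 2.97 for Gsta1 and -1.30 for Gstp1 at the ends. Their median log2 fold change was 0.21, against 0.000564 over all genes tested, and the median size of the change was 0.39, against 0.277. The CPM ranges of the groups did not overlap for 6 of the 10, where 54% of all tested genes did not overlap.

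**Figure D1:**
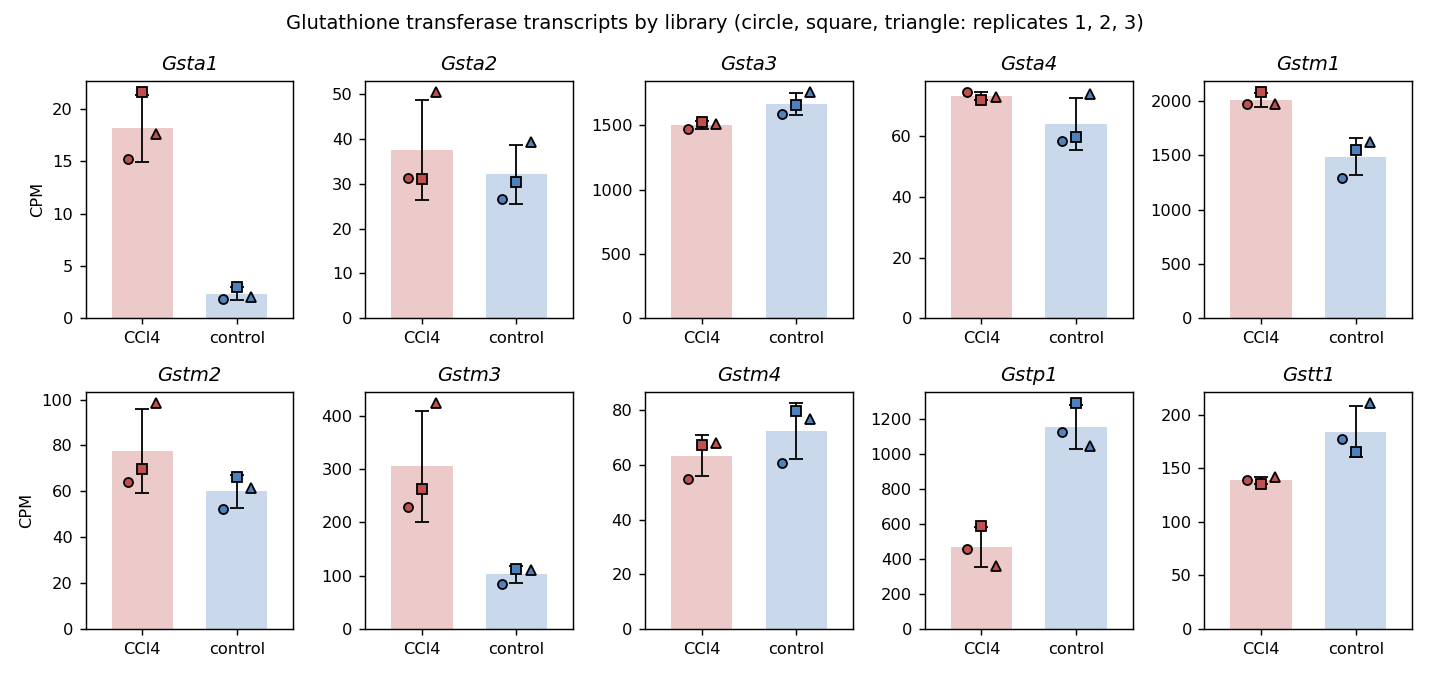
CPM of each glutathione transferase in every library, with CCl4 libraries left of control libraries in each panel; points are libraries, bars the group means and error bars the SD (n = 3). Gsta1 and Gstm3 lie higher in all 3 CCl4 libraries and Gstp1 and Gstt1 lower in all 3, while the points of Gsta2, Gsta4, Gstm2 and Gstm4 overlap.

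Within the alpha class, Gsta1 was the only member called. Gsta1 (ENSMUSG00000074183, chromosome 9), an alpha enzyme known in mouse liver as scarce until induced, had 15.2, 21.6 and 17.6 CPM in CCl4 livers, against 1.86, 3.03 and 2.07 CPM in control livers. Every CCl4 library lay above every control library. The log2 fold change was 2.97 (SE 0.20, adjusted p = 1.40e-05), a fold of 7.82 with a 95% interval of 5.74 to 10.7. It rested on 302 to 437 counts per CCl4 library and 35 to 56 per control library.

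Gsta2 (ENSMUSG00000057933, chromosome 9), whose coding sequence is nearly that of Gsta1, had 31.2, 31.0 and 50.4 CPM in CCl4 livers and 26.5, 30.3 and 39.4 CPM in control livers. The groups overlapped, and CCl4 replicate 3 alone lay above all controls. The log2 fold change was 0.23 (95% interval -0.43 to 0.89, adjusted p = 0.532), and it was -0.04 without CCl4 replicate 3. Since these genes share most of their sequence, they were also summed. Gsta1 and Gsta2 together averaged 55.7 ± 11.1 CPM in CCl4 and 34.4 ± 6.60 CPM in control livers (log2 fold change 0.70, SE 0.19, adjusted p = 0.0328). Leaving out CCl4 replicate 2 (adjusted p = 0.0656), CCl4 replicate 3 (0.0528), control replicate 1 (0.0675) or control replicate 2 (0.103) ended this call, as did dropping the filter on low counts (0.129). The sum hides how differently the rows behaved: Gsta1 was 7.82-fold higher and Gsta2 was not called.

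A further row on chromosome 9, Gm3776, shares stretches of 50 bases with both genes. It averaged 6.41 ± 1.86 CPM in CCl4 and 1.05 ± 0.386 CPM in control livers (log2 fold change 2.60, SE 0.30, adjusted p = 1.82e-04). Gm10639, another such row, averaged 0.447 CPM in CCl4 and 0.0714 CPM in control livers and was too low to test. With both rows added, the sum of Gsta1 and Gsta2 had a log2 fold change of 0.82 (SE 0.19, adjusted p = 0.0163). Gm3776 thus moved the same way as Gsta1, most of whose stretches it holds. Whether reads of one gene were counted in the row of the other was not tested.

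Gsta3 (ENSMUSG00000025934, chromosome 1), the abundant constitutive alpha enzyme of mouse liver, known for its conjugation of aflatoxin epoxide, shares no such stretch. It had 1468, 1526 and 1509.8 CPM in CCl4 livers, against 1586, 1659 and 1756 CPM in control livers. All 3 CCl4 libraries lay below the controls, but the gap was small, with a log2 fold change of -0.15 (95% interval -0.30 to -0.0073, adjusted p = 0.0870). It was not called.

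Gsta4 (ENSMUSG00000032348, chromosome 9) encodes the alpha enzyme that prefers 4-hydroxynonenal, an aldehyde released when membrane lipids are oxidised. It had 74.5, 72.0 and 73.1 CPM in CCl4 livers, against 58.5, 59.8 and 73.8 CPM in control livers. Control replicate 3 lay among the CCl4 libraries and the other controls below them. The log2 fold change of 0.19 (SE 0.09, adjusted p = 0.1002) was not called. It was called without control replicate 3 (0.30, adjusted p = 0.00517), with upper quartile scaling (0.28, adjusted p = 0.0209) and with library size alone (0.34, adjusted p = 0.00882). As Gsta3 outweighs the rest, the 4 alpha genes together averaged 1629.97 ± 35.9 CPM in CCl4 and 1766 ± 99.7 CPM in control livers (log2 fold change -0.12, SE 0.07, adjusted p = 0.192).

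In the mu class, the most abundant member and one of its close relatives were higher. Gstm1 (ENSMUSG00000058135, chromosome 3), the main mu enzyme of mouse liver, had 1976, 2080.3 and 1969 CPM in CCl4 livers, against 1293, 1549.9 and 1619 CPM in control livers. The lowest CCl4 library lay above the highest control. It was called at a log2 fold change of 0.43 (SE 0.09, adjusted p = 0.00341), a fold of 1.35 with a 95% interval of 1.18 to 1.55.

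Gstm3 (ENSMUSG00000004038, chromosome 3), a second mu enzyme of the liver, had 229, 263 and 424 CPM in CCl4 livers, against 83.8, 113 and 109.8 CPM in control livers. Again the groups did not overlap, and CCl4 replicate 3 was well above the other CCl4 libraries. The log2 fold change was 1.58 (SE 0.28, adjusted p = 0.00977), a fold of 2.99 with a 95% interval of 1.80 to 4.95. Without CCl4 replicate 3 it was 1.27 (adjusted p = 0.00106).

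The other mu members did not pass the test. Gstm2 (ENSMUSG00000040562, chromosome 3), a mu enzyme more often described in muscle and brain, had 64.2, 69.8 and 98.5 CPM in CCl4 livers and 52.1, 66.2 and 61.4 CPM in control livers. The groups overlapped, with CCl4 replicate 3 the highest of all 6 libraries (log2 fold change 0.37, SE 0.19, adjusted p = 0.167). Gstm4 (ENSMUSG00000027890, chromosome 3) had 54.9, 67.3 and 68.0 CPM in CCl4 livers and 60.5, 79.8 and 76.7 CPM in control livers. Its groups overlapped too, and the log2 fold change was -0.19 (SE 0.12, adjusted p = 0.264); without control replicate 1 it was called at -0.31 (adjusted p = 0.0452). CCl4 replicate 3 was thus the highest library for Gsta2, Gstm2 and Gstm3, and it was not so for Gstm1.

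The 4 mu members together averaged 2455 ± 119 CPM in CCl4 and 1722 ± 203 CPM in control livers (log2 fold change 0.51, SE 0.09, adjusted p = 0.00175). Adding some rows that share stretches with them, Gstm2-ps1, Gm8834, Gm6665 and Gm12499, left the sum at 0.51 (adjusted p = 0.00172). Of these rows, Gstm2-ps1 was called higher at 0.46 (adjusted p = 0.00400) and Gm8834 at 1.02 (adjusted p = 7.32e-04), Gm6665 was not called at 0.39 (adjusted p = 0.252), and Gm12499 was too low to test. The mu total was thus called higher with and without these rows. Gstm6, which shares stretches with Gstm3 and was called lower (-0.92, adjusted p = 4.47e-04), was not added. A mu sum that includes Gstm6 was not tested.

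Gstp1 (ENSMUSG00000060803, chromosome 19), the pi enzyme, is known in mouse liver to be more abundant in males than in females. It had 457, 587 and 363 CPM in CCl4 livers, against 1125, 1292 and 1045 CPM in control livers. No CCl4 library came near the controls, and CCl4 replicate 3 was the lowest. This gave a log2 fold change of -1.30 (SE 0.18, adjusted p = 0.00177), so that control livers held 2.46-fold more. In counts, CCl4 libraries had 7381 to 11874 and control libraries 19715 to 23921.

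Gstp2 and Gstp3 lie beside Gstp1 and were far lower. Gstp2 averaged 2.68 ± 0.380 CPM in CCl4 and 3.51 ± 0.815 CPM in control livers (log2 fold change -0.39, SE 0.21, adjusted p = 0.168). Gstp3 averaged 13.4 ± 1.40 CPM in CCl4 and 13.5 ± 1.83 CPM in control livers (-0.01, adjusted p = 0.954), with a direction that flipped under upper quartile scaling and library size alone. The sum of the 3 genes averaged 485 ± 114 CPM in CCl4 and 1171 ± 125 CPM in control livers (-1.27, SE 0.18, adjusted p = 0.00165). The pseudogene row Gstp-ps, on chromosome 1, averaged 44.3 ± 10.4 CPM in CCl4 and 105 ± 9.89 CPM in control livers (-1.24, SE 0.18, adjusted p = 0.00269). It shares stretches with Gstp1 and had nearly the same fold change, and with it the pi sum was -1.27 (adjusted p = 0.00161).

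Gstt1 (ENSMUSG00000001663, chromosome 10), a theta enzyme known for conjugating small halogenated molecules such as dichloromethane, had 139, 135 and 142 CPM in CCl4 livers, against 177, 165 and 211 CPM in control livers. The CCl4 libraries lay close together and below every control. This was a log2 fold change of -0.41 (SE 0.09, adjusted p = 0.00441), so that control livers held 1.33-fold more.

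**Figure D2:**
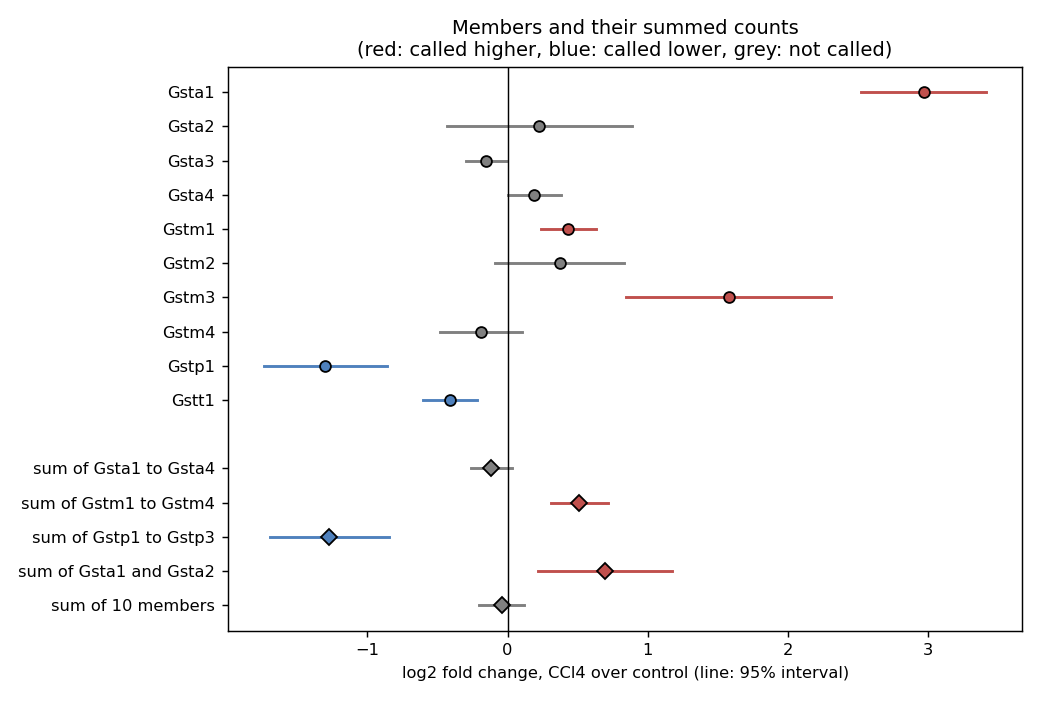
Log2 fold change of CCl4 over control for each member and for the class sums; points are the edgeR estimates and bars their 95% intervals. Gsta1 lies at 2.97 and Gstp1 at -1.30, while the sum of all 10 members lies at -0.04 with an interval from -0.20 to 0.12.

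Although 5 members were called, the total over the family did not pass the test. The 10 members summed to 4509, 4853 and 4715 CPM in CCl4 livers and 4466, 5018 and 4995 CPM in control livers, and the ranges overlapped. The log2 fold change of the sum was -0.04 (SE 0.07, adjusted p = 0.682), with a 95% interval from -0.20 to 0.12. Its sign turned with other scalings, to 0.05 with upper quartile scaling and 0.11 with library size alone, without a call. The tested genes whose levels across the 6 libraries lay nearest to this sum were Rnf11 (distance 0.0504), Nup88 (0.0515) and Igsf5 (0.0528), measured as Euclidean distance between centred log2 CPM values.

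The make-up of that total differed between the groups. Gstm1 took 43.8, 42.9 and 41.8% of the member counts in CCl4 libraries, against 29.0, 30.9 and 32.4% in control libraries. Gstp1 took 10.1, 12.1 and 7.69% in CCl4 libraries, against 25.2, 25.8 and 20.9% in control libraries. Neither pair of ranges overlapped: the share of Gstm1 differed by 12.1 percentage points (CCl4 minus control) and that of Gstp1 by -14.0 points. Gstm3 took 6.50 ± 2.17% in CCl4 and 2.11 ± 0.204% in control libraries. Gsta3 took 32.0 ± 0.552% in CCl4 and 34.6 ± 1.33% in control libraries. Gstt1 took 2.96 ± 0.154% in CCl4 and 3.83 ± 0.486% in control libraries, and Gsta1 took 0.386 ± 0.0548% in CCl4 and 0.0478 ± 0.0108% in control libraries. So Gsta1, the gene with the largest fold change among the 10, stayed a minor part of the counted total. Most stretches of Gsta1, Gsta2 and Gstp1 also occur in other genes. How far this lowered or raised their counts was not tested. In an exact two-sided permutation test over libraries, 8 of the 10 shares reached p = 0.1, the smallest p that 3 against 3 allows. Gsta2 gave 0.5 and Gstm4 0.3. The shares are parts of 1 total, so these tests are not independent, and a lower share of 1 gene raises the others. Gsta4 and Gstm2 are among the 8, although their CPM ranges overlapped. As CPM, the ranges of 54% of all tested genes did not overlap.

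**Figure D3:**
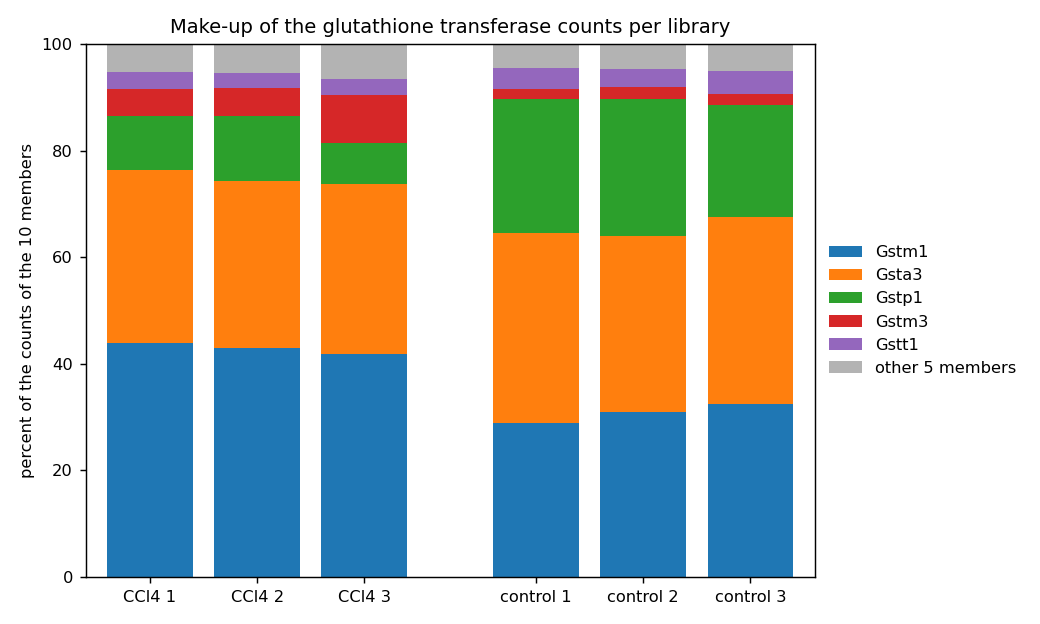
Share of the counts of the 10 members taken by each gene in every library, in percent, with the 3 CCl4 libraries left of the 3 control libraries; the grey segment sums the other 5 members. Gstm1 is the widest segment in each CCl4 library (41.8 to 43.8%), and Gsta3 in each control library (33.1 to 35.5%), where Gstp1 holds 20.9 to 25.8%.

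To compare genes with each other, CPM was divided by the length of the principal transcript in kilobases. The places of Gsta1, Gsta2 and Gstp1 carry the limit that most of their stretches also occur in other genes. In CCl4 livers Gstm1 came first, at 1558 ± 48.3 CPM per kilobase, then Gsta3 at 1030.3 ± 20.7, Gstp1 at 571 ± 137, Gstm3 at 233 ± 79.4 and Gstt1 at 134 ± 3.38. Below them were Gsta4 at 74.9 ± 1.30, Gstm2 at 72.8 ± 17.3, Gsta2 at 43.1 ± 12.8, Gstm4 at 37.2 ± 4.30 and Gsta1 at 20.8 ± 3.69 CPM per kilobase. Among these neighbours in CCl4 livers, the library ranges overlapped only between Gsta4 and Gstm2 and between Gsta2 and Gstm4.

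Control livers had another order per kilobase. Gstp1 came first, at 1406 ± 154 CPM per kilobase, before Gstm1 at 1154 ± 133 and Gsta3 at 1144 ± 58.4, then Gstt1 at 178 ± 23.1 and Gstm3 at 78.0 ± 12.2. Gsta4 followed at 65.5 ± 8.67, Gstm2 at 56.3 ± 6.75, Gstm4 at 42.4 ± 6.05, Gsta2 at 36.9 ± 7.60 and Gsta1 at 2.65 ± 0.709 CPM per kilobase. In control livers the ranges of Gstm1 and Gsta3 overlapped, as did those of Gstm3 and Gsta4, Gsta4 and Gstm2, and Gstm4 and Gsta2. The first places of the control order depend on the length used: with the length of all exons joined, Gstm1 came first and Gstp1 second. By transcript length, Gstm3 stood a place higher in CCl4 than in control livers and Gstt1 a place lower.

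Apart from Gsta3, which lies on chromosome 1, the members lie beside other transferase genes, and neighbours did not all move together. On chromosome 3, in the order Gstm5, Gstm7, Gstm6, Gstm3, Gstm2, Gstm1 and Gstm4, the calls ran in both directions. Gstm5 averaged 9.32 ± 0.612 CPM in CCl4 and 6.00 ± 0.577 CPM in control livers (log2 fold change 0.63, SE 0.12, adjusted p = 0.00202). Gstm6 averaged 66.4 ± 10.2 CPM in CCl4 and 126 ± 9.77 CPM in control livers (-0.92, SE 0.11, adjusted p = 4.47e-04). Gstm6 was thus lower, next to Gstm3, which was 2.99-fold higher, and Gstm7 was not called (0.06, adjusted p = 0.525). On chromosome 9 the order is Gsta4, Gsta1, Gm3776, Gm10639 and Gsta2. Gsta1 (2.97) and the row next to it, Gm3776 (2.60, adjusted p = 1.82e-04), were both called higher. These are the rows that share most stretches, and a sharing of reads was not tested. Gsta4 and Gsta2, at the ends, were not called, and Gm10639 was too low to test. On chromosome 10, Gstt2 averaged 35.5 ± 4.81 CPM in CCl4 and 67.7 ± 8.48 CPM in control livers (-0.93, SE 0.12, adjusted p = 7.25e-04). Like Gstt1 it was lower, while Gstt3, on the other side of Gstt1, was not called (0.20, adjusted p = 0.235) and Gstt4 was too low to test.

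**Figure D4:**
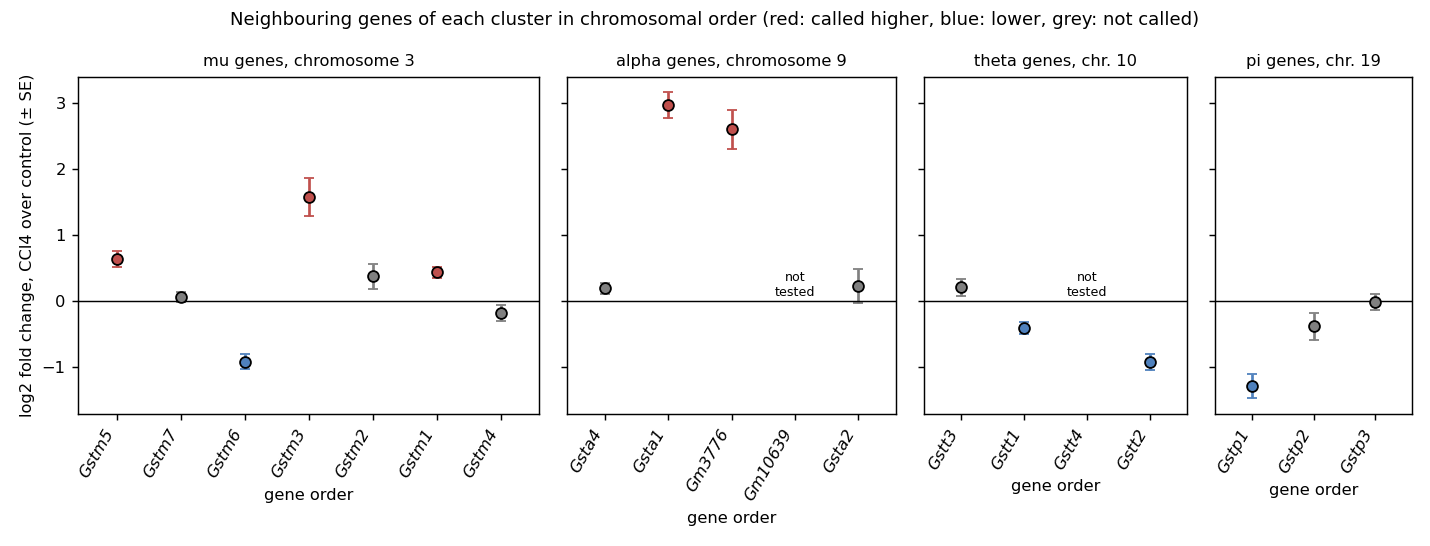
Log2 fold change of CCl4 over control for neighbouring transferase genes in their order along chromosomes 3, 9, 10 and 19; points are estimates, bars are ± 1 SE, and colour gives the call. On chromosome 3, Gstm6 at -0.92 lies beside Gstm3 at 1.58, and on chromosome 10 Gstt2 (-0.93) and Gstt1 (-0.41) are both lower.

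Outside the 10 members, 11 further cytosolic transferases were tested, and 2 were higher and 3 lower (45.5% called, median log2 fold change 0.03). That is near the 41.3% called over all genes tested (21.2% higher, 20.1% lower). The same shares apply beside every list count below. Besides Gstm5, the higher one was Hpgds, the sigma-class enzyme that makes prostaglandin D2 in immune cells, at 14.1 ± 0.351 CPM in CCl4 and 1.94 ± 0.394 CPM in control livers (2.86, SE 0.14, adjusted p = 2.26e-06). Besides Gstm6 and Gstt2, the lower one was Gstz1, which acts in tyrosine breakdown, at 522 ± 12.1 CPM in CCl4 and 678 ± 21.6 CPM in control livers (-0.38, adjusted p = 8.19e-04). The omega-class gene Gsto1 (0.03, adjusted p = 0.687) and Gstcd (0.19, adjusted p = 0.273) were not called. All 5 tested genes of the mitochondrial and membrane-bound transferases were called. Ptges, which makes prostaglandin E2 (2.56, adjusted p = 1.26e-04), Alox5ap, which serves leukotriene synthesis (1.15, adjusted p = 0.00399), and Mgst3 (0.72, adjusted p = 0.0125) were higher. Mgst3 lost its call without control replicate 1 (adjusted p = 0.0530). Gstk1, the kappa enzyme of mitochondria and peroxisomes, was lower (-0.32, adjusted p = 0.00192), a call lost with library size alone (adjusted p = 0.0609). Mgst1, the microsomal enzyme, had 2226, 2389 and 2290.2 CPM in CCl4 and 3018, 3022 and 2964 CPM in control livers, with every CCl4 library below the controls. In CCl4 livers the higher of these genes averaged between 2.02 CPM (Alox5ap) and 17.4 CPM (Mgst3), whereas Mgst1, which was lower, averaged 2302 CPM (log2 fold change -0.38, adjusted p = 9.96e-04).

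Transcripts of genes for the supply of glutathione, the co-substrate of all these enzymes, moved in both directions. Glutathione itself was not measured. Of 18 genes of its synthesis, supply and recycling, 5 were higher and 6 lower (median -0.01). Gclc, the catalytic subunit of the rate-limiting enzyme of glutathione synthesis, averaged 332 ± 18.2 CPM in CCl4 and 542 ± 25.6 CPM in control livers (-0.71, SE 0.07, adjusted p = 5.31e-05). Gss, which adds the last amino acid, was higher (0.41, adjusted p = 0.00471), as was Slc7a11, the cystine importer, at 2.82 ± 0.351 CPM in CCl4 and 0.516 ± 0.251 CPM in control livers (2.43, adjusted p = 2.85e-04). Its partner chain Slc3a2 (0.39), Ggct (0.53), which breaks down gamma-glutamyl peptides, and Mat1a (0.34), which makes S-adenosylmethionine, were also higher. Gsr, glutathione reductase (-0.32), and Glo1, the glyoxalase that uses glutathione (-0.74), were lower.

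After conjugation the products are exported and trimmed. Of 7 genes of export, 3 were higher and 3 lower. The pumps of high level in these livers were the lower ones: Abcc2, the pump of the bile canaliculus, averaged 676 ± 27.2 CPM in CCl4 and 921 ± 89.5 CPM in control livers (-0.44, adjusted p = 0.00173). Abcc3 (-0.43) and Abcg2 (-0.52) were lower too, while Abcc4 (2.03), Abcc5 (0.87) and Abcc1 (0.76) were higher. Abcc4, a pump of the sinusoidal side, averaged 14.3 ± 4.79 CPM in CCl4 and 3.49 ± 0.602 CPM in control livers (adjusted p = 8.54e-04). Of 11 tested genes of mercapturate formation, 3 were higher and 4 lower. The peptidases that trim the glutathione part, Ggt6 (0.54), Ggt5 (0.99) and Dpep1 (1.57), were the higher ones. The acetyltransferase genes Nat8 (-0.66), Nat8f1 (-0.36) and Nat8f2 (-0.21) and Kyat1, a cysteine conjugate lyase (-0.36), were lower, at adjusted p of 0.0205 to 0.0344. These 4 calls were weak: all were lost with library size alone (adjusted p = 0.0664 for Nat8, 0.181 for Nat8f1, 0.453 for Nat8f2 and 0.111 for Kyat1). Single libraries left out also ended them: CCl4 replicates 1 and 3 and control replicates 2 and 3 for Nat8, CCl4 replicates 1 and 2 and control replicates 1 and 3 for Nat8f1, every library but CCl4 replicate 2 for Nat8f2, and any control library for Kyat1. Adjusted p then lay between 0.0579 and 0.0965, and upper quartile scaling ended those of Nat8f1 (0.0622), Nat8f2 (0.173) and Kyat1 (0.0771).

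**Figure D5:**
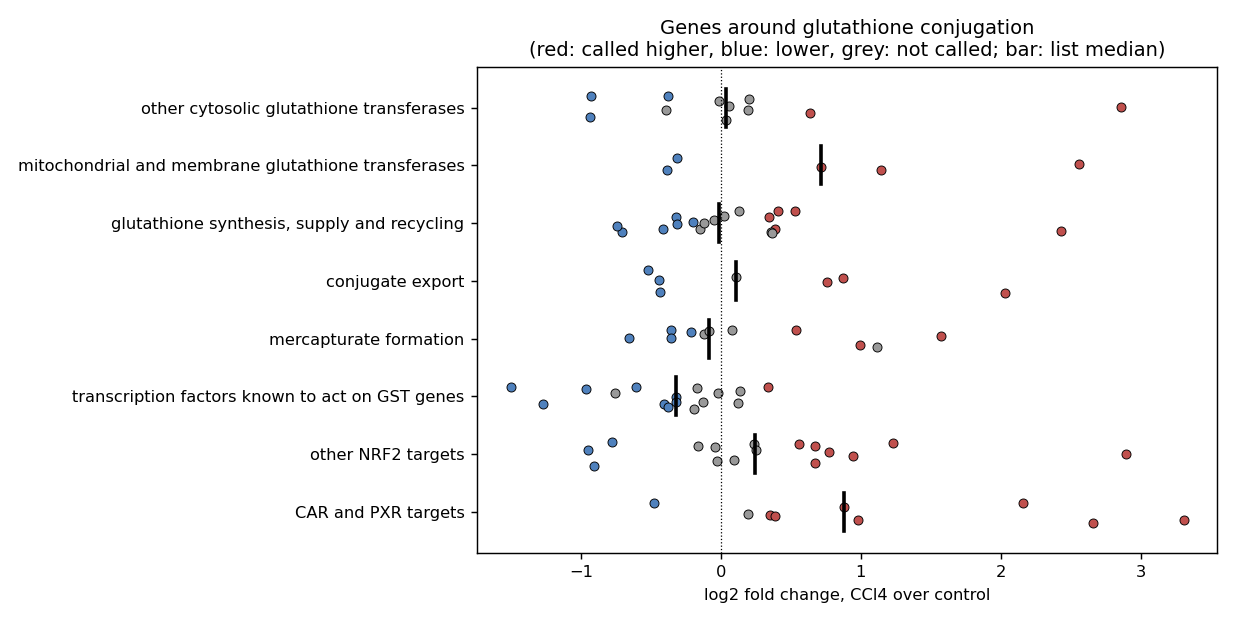
Log2 fold change of CCl4 over control for the tested genes around glutathione conjugation, 1 row per list; points are genes, colour gives the call, and black bars are list medians. Most tested CAR and PXR targets lie above 0 (median 0.88), whereas the transcription factors have a median of -0.32.

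Among 16 genes of transcription factors known to act on transferase genes and of their partners, 1 was higher and 8 lower (median -0.32). The higher one was Nfe2l2, which encodes NRF2, at 102 ± 5.598 CPM in CCl4 and 80.4 ± 1.20 CPM in control livers (0.34, SE 0.06, adjusted p = 0.00118). Ppara (-1.27, adjusted p = 3.91e-06), Nr1i3, which encodes CAR (-0.96, adjusted p = 2.68e-05), and Nr1i2, which encodes PXR (-0.40, adjusted p = 5.69e-04), were lower. These are transcript levels, and the activity of the factors was not measured.

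Of 16 other known targets of NRF2, 7 were higher and 3 lower (62.5% called, median 0.25). This list holds no gene of the glutathione supply and export lists, so its count does not cover all known targets. In the supply list Gclc (-0.71), Gclm (-0.31) and Gsr (-0.32) were lower and Slc7a11 (2.43) was higher. Nqo1, the quinone reductase often used to read NRF2, averaged 14.7 ± 3.65 CPM in CCl4 and 6.24 ± 1.81 CPM in control livers (1.23, SE 0.24, adjusted p = 0.00614). The carbonyl reductase gene Cbr3 (2.90), Srxn1, which repairs peroxiredoxins (0.68), and Pgd, of the pentose phosphate pathway (0.67), were also higher. Aox1 (-0.78), Me1 (-0.91) and Osgin1 (-0.95) were lower, so these targets, like the members, went both ways.

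Of 9 known targets of CAR and PXR, 7 were higher and 1 lower (88.9% called, median 0.88), although both receptor transcripts were lower. Cyp2b10 had 722, 530.0 and 282 CPM in CCl4 livers, against 70.3, 95.4 and 77.1 CPM in control livers (2.66, SE 0.41, adjusted p = 0.00686). Here CCl4 replicate 3 was the lowest CCl4 library. Cyp2c55 (2.16, adjusted p = 3.18e-05) and the oestrogen sulfotransferase gene Sult1e1 (3.31, adjusted p = 0.0187) were higher, and Ugt1a1, which conjugates bilirubin, was lower (-0.48, adjusted p = 0.0185). Sult1e1 had 0.706, 0.692 and 3.00 CPM in CCl4 livers, against 0.213, 0.108 and 0.106 CPM in control livers, so CCl4 replicate 3 was far above the rest; without it the log2 fold change was 2.24 (adjusted p = 0.00370). Its call ended without control replicate 2 (adjusted p = 0.0658) or 3 (0.0711). That of Ugt1a1 ended with library size alone (adjusted p = 0.0843), with no filter on low counts (0.0539), and without CCl4 replicate 1 (0.0604), control replicate 1 (0.0503) or control replicate 3 (0.0625).

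Further gene lists were compared between the same CCl4 and control libraries. These lists were chosen with earlier results of these data known, so their counts are descriptions. Over all genes tested, 21.2% were higher and 20.1% lower. All 12 genes of a list of male-biased liver genes were lower (median -2.86), and they summed to 3449, 4199 and 1728 CPM in CCl4 and 15920, 17560 and 13110 CPM in control libraries. Mup20 (-1.72) and Serpina1e (-2.49), each a gene of a family of near-identical copies, were the most abundant of them. Serpina1e was not called without CCl4 replicate 1 (adjusted p = 0.0691) or control replicate 2 (0.0566). Of 8 tested female-biased genes, 4 were higher and 0 lower, among them Abcd2 (1.19) and Cyp2b9 (5.57), and 4 were not called. Their list summed to 221, 227 and 338 CPM in CCl4 and 45.1, 41.1 and 63.7 CPM in control libraries. For the sums of both lists CCl4 replicate 3 lay farthest from the controls, as it did for Gstp1 and Gstm3. It did not for the other called members, Gsta1, Gstm1 and Gstt1. This is the place of a single library, which stood apart from the other CCl4 libraries across genes. A link between these lists and the members was not tested.

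Position in the lobule was read from further lists. Among 13 hepatocyte genes of the pericentral zone, 12 were lower and 0 higher (median -1.68), and the list summed to 3631, 3420 and 4857 CPM in CCl4 and 12960, 12850 and 14020 CPM in control libraries. Glul, glutamine synthetase of the cells around the central vein (-3.57, adjusted p = 6.38e-07), Cyp2e1, which turns CCl4 into its radical (-1.85), and Slco1b2 (-0.88) were among them. Gstm3, which is also described as pericentral, was higher (1.58), and Gstm6 beside it on the chromosome was lower (-0.92). Where in the lobule the transferases were made was not measured. Of 11 periportal genes, 2 were higher and 3 lower; Ass1 was not called (0.04, adjusted p = 0.692). Cps1 of the urea cycle was lower (-0.24, adjusted p = 0.0211), but not with upper quartile scaling (-0.15, adjusted p = 0.0989) or library size alone (-0.093, adjusted p = 0.339). Its call also ended without CCl4 replicate 1 (adjusted p = 0.0636), CCl4 replicate 2 (0.102) or control replicate 3 (0.0818).

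Markers of other liver cells were counted beside the transferases, since some of these cells make them too. Of 13 hepatocyte markers, 4 were higher, Trf (0.47) among them, and 5 lower. Of 10 tested markers of cholangiocytes and ductular cells, 6 were higher and 0 lower, Spp1 (2.17) among the higher ones. The ductular list summed to 307, 348 and 414 CPM in CCl4 and 104, 127 and 79.0 CPM in control libraries. All 12 macrophage and monocyte markers were higher, Ctss (2.00) and Lyz2 (2.10) among them, and the list summed to 914, 854 and 957 CPM in CCl4 and 307, 344 and 267 CPM in control libraries. Of 12 stellate cell and fibroblast markers, 9 were higher and 0 lower, Col3a1 (2.84) and Dcn (0.63) among them, with sums of 1241, 1244 and 1344 CPM in CCl4 and 447, 384 and 392 CPM in control libraries. Of 10 endothelial markers, 0 were higher and 1 lower, and neither Stab2 (-0.07) nor Eng (-0.05) was called. The part that these cells, the lobule lists or the sex-biased lists had in the values of the 10 members was not tested.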

How the data were processed

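Liver RNA was sequenced in 6 libraries, 3 CCl4 and 3 control. Per the series' design text, reads were cleaned and aligned with HISAT2; per the submitters' processing notes, they were counted per gene with featureCounts. The sources used here give no versions, genome build, annotation, strand setting or handling of reads with several matches. The authors deposited raw counts, which totalled 18929972 to 20042731 per library; rows without an Ensembl identifier (443 of 55802) held 0.543 to 0.679% of them and were kept. Symbols came from GENCODE M21 and matched 52083 of 55359 Ensembl identifiers.

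The test was that of edgeR 4.0.16 in R 4.3.3 (filterByExpr, TMM, robust glmQLFit, glmQLFTest, no covariates), with a common biological coefficient of variation of 10.63%. Class sums replaced their member rows in the same fit. Standard errors were taken as log2 fold change over root F, and intervals are at 95%. On simulated data for this comparison, with 15045 genes tested, it recovered 80% of 100 genes given a log2 change of 1 and 99% of 100 given a log2 change of 2, with 16 false calls among 14845 unchanged genes. Far fewer genes were changed there than the 41.3% called in the data. The simulation therefore cannot show how scaling or false calls behave with so many changed genes.

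No protein sequences were used, so identity was computed between coding sequences with Biopython 1.88. Alternatives were other scalings and filters, DESeq2 1.42.0, limma-voom (limma 3.58.1), a replicate block, and leaving out each library. The AP-1 motif, the joined exon length and the rows sharing sequence with members were added after seeing the data. The members and lists were chosen with earlier results of these data known. Besides the members, the rule named every tested transferase of the other transferase lists. In the remaining pathway and regulator lists it named the 3 called genes of smallest adjusted p in each direction, or all called genes of a direction with 5 or fewer. It named the 2 most abundant genes of each context or marker list, the 3 genes most like the summed members, and Glul, Alb, Nfe2l2 and Nqo1. Rows that share sequence with members were named besides, and some genes are not reported here. Without a stated strand setting, reads of antisense genes cannot be told apart from a gene's own.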

Additional observations from a re-analysis of the deposited data

How the results depend on the processing

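The 5 called members kept their direction and their call in all 14 alternatives: log2 fold changes ran from 2.82 to 3.20 for Gsta1, 0.34 to 0.58 for Gstm1, 1.27 to 1.75 for Gstm3, -1.49 to -1.14 for Gstp1 and -0.49 to -0.26 for Gstt1, with adjusted p up to 0.0367. Scaling moved the background: library size alone gave 4824 higher and 1676 lower genes and shifted the median over all genes, on the log2 scale, to 0.147, and upper quartile scaling gave 4103 and 2177 and a median of 0.0872. The sum of the 10 members was then 0.047 (upper quartile) or 0.11 (library size alone), and that of Gsta1 to Gsta4 0.032 (library size alone). Gsta1 and Gsta2 together lost their call with no filter (0.68) and ranged from 0.53 to 0.85 with single libraries left out. With all 23 cytosolic transferases in the denominator, the differences in share were -1.18 points for Gsta3 and -11.2 for Gstp1. Directions also turned for genes that were not called: Gsta2 without CCl4 replicate 3 (-0.044, against up to 0.397 with other libraries left out); Gstp3 with upper quartile scaling (0.076), library size alone (0.14), the stricter filter (0.0030) and single libraries left out (-0.12 to 0.056); Stab2 (0.015 and 0.076) and Eng (0.032 and 0.093) with upper quartile scaling and library size alone; Ass1 without CCl4 replicate 3 (-0.028). With library size alone, Gstm7, Gsto1 and Alb were called higher (0.21, 0.18 and 0.19), and without control replicate 3 so was Gstt3 (0.33). Unless the setting itself shows it (fewer genes or libraries), the cause was not tested. With the replicate number as a block, 3298 genes were higher and 3118 lower, Gstm4 was called lower (-0.19, adjusted p = 0.0283) and Gstt3 higher (adjusted p = 0.0282). In their deviations from the group means, same-numbered libraries correlated at 0.0713, 0.0276 and 0.109. Each CCl4 library correlated best with the control of its number, but control replicate 2 correlated best with CCl4 replicate 1 (0.0431). The numbers are not stated to pair libraries and were not taken as pairs. The sharing of reads between near-identical genes was not tested and limits the separate values of Gsta1, Gsta2 and Gstp1.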
